A study of Mus musculus with 12 samples.

Results

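The genes described here are 43 regulators and markers of the cell cycle and of quiescence, chosen by gene symbol from a list of cyclins, cyclin-dependent kinases (CDKs), CDK inhibitors, pocket proteins, E2F factors, replication licensing genes, mitotic genes and Myc factors. The RNA-seq table lists 22548 genes, and each of the 43 has 1 entry in it. Their expression was examined in 12 samples of long-term hematopoietic stem cells (HSCs) from C57BL/6 mice, comprising 4 samples from young mice (2 to 4 months old, replicates 2 to 5), 5 from aged mice (20 to 26 months old, replicates 0 and 2 to 5) and 3 from aged mice treated with CASIN (20 to 26 months old, replicates 1 to 3). CASIN is a small molecule that inhibits the activity of the RhoGTPase Cdc42, and it was given to the sorted cells at 5 µM. The labels give the same culture for all 3 groups, a salt solution with 10% serum for 16 h under 3% O2 (with 5% CO2 and at 37 °C). The labels give at least 200 sorted cells for a library, whereas the study's methods give a larger number of pooled cells. The methods call the samples biological repeats, meaning experiments on separate days with separate mice, but not how many mice went into a library, so p-values measure the spread between these samples.

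HSCs are mostly quiescent, which means that they rest outside the cycle in G0 and divide rarely. Entry into the cycle is driven by D-type cyclins with Cdk4 and Cdk6 and then by cyclin E with Cdk2, which together phosphorylate the pocket proteins of the retinoblastoma family and release E2F factors, and these in turn switch on genes for DNA replication. CDK inhibitors of the Cip/Kip family (p21, p27) and the Ink4 family (p15, p16, p18, p19) hold these kinases back, and p16 is widely used as a marker of cellular ageing. Genes for mitosis are switched on later, and because only dividing cells use them, their transcripts are scarce in resting populations.

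The deposited values are log2 expression levels brought to one distribution in all samples, and in each sample many genes share one lowest value, between 0 and 0.67. A gene above this value is called detected below. Detection was uneven between samples: 27.0% to 42.9% of all genes were detected in young, 50.8% to 78.1% in aged, and 30.4%, 88.8% and 32.3% in CASIN replicates 1, 2 and 3. The number of cells, the depth and the RNA content behind a sample cannot be told apart from these values, and fewer cells in cycle and less RNA per cell cannot be told apart either. Of 10 HSC marker genes, 3 to 5 were detected in each young sample, 6 to 10 in aged and 3 to 10 in CASIN-treated samples, with summed log2 values of 15.6 to 26.4, 9.77 to 25.5 and 18.5 to 34.4. Kit and Ly6a, which encode the c-kit and Sca-1 antigens of the sort, were at the lowest value in all 4 young samples and were detected in 4 of 12 samples each. In contrast, Itgam (7.48 to 9.17), Cd3d (8.26 to 9.98), Cd8a (3.03 to 7.86), Cd4 (1.01 to 7.23) and Il7r (3.88 to 7.21), markers of myeloid and lymphoid cells, were detected in all 12 samples, whereas Hbb-bs, Hbb-b1, Prtn3 and Cd5 were detected in none. Of the 6 T cell markers, 3 to 4, 4 to 5 and 3 to 5 were detected in young, aged and CASIN-treated samples (summed log2 values 17.7 to 22.4, 19.0 to 22.0 and 14.8 to 30.0). For 8 myeloid markers the numbers were 2 to 3, 3 to 5 and 2 to 6 (11.4 to 16.9, 13.4 to 20.3 and 12.3 to 13.2), for 6 B cell markers 0 to 3, 2 to 6 and 2 to 6 (0 to 17.5, 4.40 to 24.4 and 8.30 to 14.7), for 5 erythroid markers 0 to 2, 1 to 3 and 0 to 1 (0 to 9.66, 1.16 to 13.2 and 0 to 6.84) and for 6 markers of stroma and endothelium 1 to 5, 5 to 6 and 2 to 6 (6.44 to 22.7, 19.7 to 34.2 and 13.2 to 24.7). Of 3 genes low or absent in the sorted population (Flt3, Il7r and Cd34), 1 to 2 were detected in young, 2 to 3 in aged and 1 to 3 in CASIN-treated samples (3.88 to 11.8, 8.76 to 13.3 and 5.44 to 11.3). The part of other cells in the results below was not tested.

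Part of the upstream sequences of these genes hold letters that the choice by gene symbol did not use. The genes were chosen as known cell cycle genes, so an excess of such letters over all genes is a description and not a test. Promoters from 250 bases before to 50 after the transcription start (RefSeq, GRCm38.p6, which is the mm10 assembly) were matched for 34 of the 43 genes. The letters TTTCCCGC or TTTGGCGC, forms of the site that E2F factors bind, were searched on both strands and were present in 11 of the 34 (Cdk2, Cdkn2a, E2f2, E2f3, Mcm3, Mcm5, Mcm6, Mcm7, Cdc6, Cdt1 and Mycn), or 32.4%, against 1.80% of the 27025 genes with a promoter. The letters TTTGAA, a core of the cell cycle genes homology region (CHR) of mitotic promoters, were present in 13 of the 34 (Ccnb2, Cdk1, Cdkn2b, Rbl2, E2f2, E2f3, Mcm2, Mki67, Top2a, Aurka, Plk1, Cdc20 and Mycn), or 38.2%, against 20.2% of all genes. No promoter was matched for Ccnd1, Ccnd2, Ccne2, Ccna2, Rb1, E2f4, Mcm4, Aurkb and Myc. The E2f1 entry, counted among the 34 and without either motif, lies inside the GENCODE M21 gene, which begins at 154569892. A match of letters is a description and not a bound site. Sequences are shown for Mcm7, Cdk2 and Top2a, which had the lowest p-values between young and aged HSCs, with the matched letters in capitals. All lie on the minus strand and read 5′ to 3′. For Mcm7 (chr5:138172030-138172059) and Cdk2 (chr10:128705173-128705202) they are the 30 bases around the E2F letters. The Mcm7 site precedes a RefSeq start but lies inside the GENCODE M21 gene, which begins at 138172422, in its first exon. The 250 bases before a second RefSeq start of Mcm7 (chr5:138171267-138171516) hold neither motif. For Top2a the 250 bases before the start are given (chr11:99024190-99024439).
Mcm7: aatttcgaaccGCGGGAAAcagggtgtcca
Cdk2: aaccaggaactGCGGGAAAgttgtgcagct
Top2a: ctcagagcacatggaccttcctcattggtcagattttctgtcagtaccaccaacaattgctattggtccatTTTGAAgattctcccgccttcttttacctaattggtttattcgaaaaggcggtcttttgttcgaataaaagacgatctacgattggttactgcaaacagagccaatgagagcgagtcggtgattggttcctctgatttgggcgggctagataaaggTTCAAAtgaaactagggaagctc
The E2F letters of Mcm7 and Cdk2 both stand in the reverse direction (GCGGGAAA), and Top2a holds the CHR letters once in each direction.

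Most of the 43 cell cycle genes were detected in only part of the samples of a group. In young HSCs 8, 16, 21 and 10 of them were detected in replicates 2, 3, 4 and 5. In aged HSCs the numbers were 35, 39, 19, 27 and 27 in replicates 0, 2, 3, 4 and 5, and in CASIN-treated HSCs 13, 40 and 16 in replicates 1, 2 and 3. Aged samples and CASIN replicate 2 thus had the highest numbers, apart from aged replicate 3, which was below young replicate 4. Over all genes of the table, each aged sample was above each young sample, and the percentage of cell cycle genes detected was above that of all genes in 7 samples and below it in 5, the difference lying between -8.35 and 12.5 percentage points. Over all samples of a group, 55 of 172 values of these genes were above the lowest value in young (32.0%), 147 of 215 in aged (68.4%) and 69 of 129 in CASIN-treated HSCs (53.5%).

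**Figure D1:**
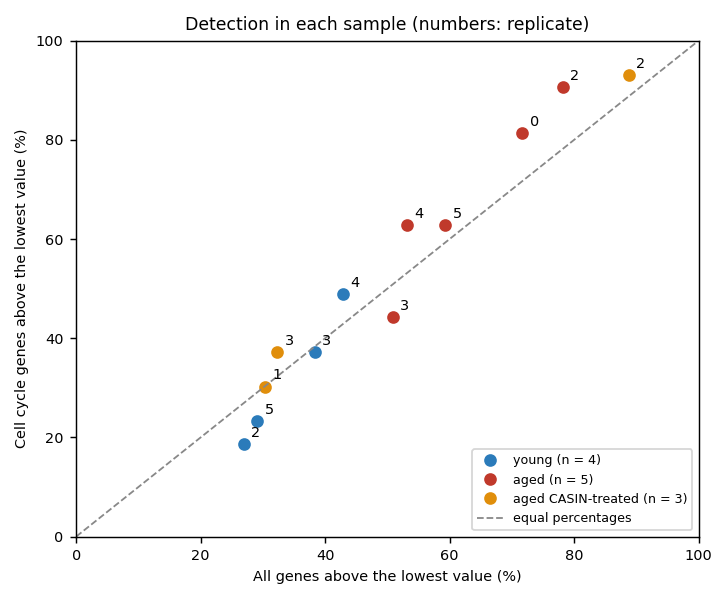
Each point is 1 of the 12 samples, with its replicate number. The x axis gives the percentage of all 22548 genes above the lowest value of the sample and the y axis that of the 43 cell cycle genes. The points follow the dashed line of equal percentages, from 27.0% and 18.6% in young replicate 2 to 88.8% and 93.0% in CASIN replicate 2.

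In young HSCs 12 of the 43 genes were detected in no sample, against 34.6% of all genes. These were Cdk2, Cdkn2a, Cdkn2c, Cdkn2d, Mcm2, Mcm3, Mcm6, Mcm7, Top2a, Aurka, Myc and Mycn. A further 17 were detected in 1 young sample only, against 27.6% of all genes. Of these 17, 11 were detected in young replicate 4 alone (Ccnd3, Ccne1, Ccne2, Ccna2, Ccnb1, Cdkn1a, Cdkn2b, Rb1, E2f2, Mcm4 and Cdt1), with log2 values of 2.03 to 7.61, and 5 in young replicate 3 alone (Ccnd1, Ccnb2, E2f4, Aurkb and Cdc20), with values of 2.50 to 7.46. In aged HSCs Cdkn2c alone was detected in no sample (6.12% of all genes), and 9 genes, Ccna2, Cdk2, Ccnb1, Cdkn1a, Rb1, E2f1, Mcm7, Cdc6 and Bub1, were detected in all 5 samples (27.0% of all genes). After CASIN, 7 genes, Ccnd2, Cdk6, Rbl1, E2f1, E2f3, Cdc6 and Bub1, were detected in all 3 samples (17.3% of all genes) and Cdk4 and Ccne2 in none (9.48%). Of the 20 genes detected in 1 CASIN-treated sample only (against 46.9% of all genes), 19 were detected in CASIN replicate 2, with a median log2 value of 0.93. E2f1 was the only one of the 43 genes detected in all 12 samples, against 9.50% of all genes.

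**Figure D2:**
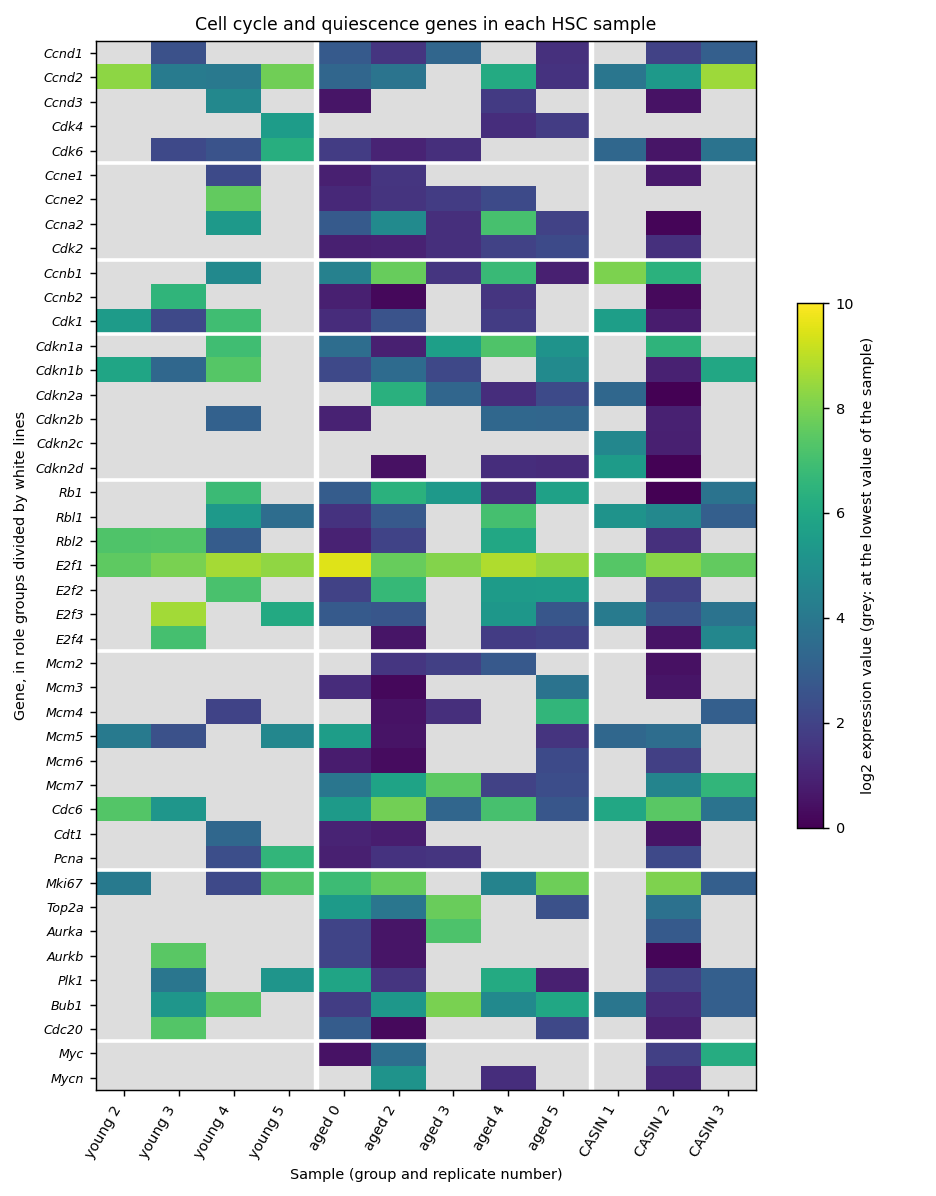
Rows are the 43 genes, divided by white lines into the 8 role groups in the order of the text, and columns are the 12 samples by group. Colour gives the log2 expression value and grey a gene at the lowest value of its sample. E2f1 is the only row coloured in all samples, and most other rows in the young and in CASIN replicates 1 and 3 are grey.

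Differences were tested over all 22548 genes with limma, without a filter and with the 3 groups in a single fit. In the comparison of young with aged HSCs, Cdk2, Mcm7 and Top2a were lower in young HSCs at an unadjusted p under 0.05. These 3 of 43 are 6.98%, against 5.33% of all genes. After Benjamini-Hochberg adjustment 0 of the 43 passed 0.05 (lowest 0.764 in limma), against 0.0177% of all genes. A value at the floor of a sample enters the fit as it stands, so a difference from a group without detection may be understated or overstated. The lowest detected values of the 43 genes were 4.11, 2.22, 2.03 and 3.59 in young replicates 2 to 5. In aged replicates 0 and 2 to 5 they were 0.48, 0.22, 1.36, 1.30 and 0.89. A low level detected in aged samples may thus lie at the floor in young samples. With one common lowest value of 0.67, the samples of both groups did not overlap for 2 of the 43 genes, Cdk2 and Mcm7, lower in young HSCs (4.65%, against 1.61% of all genes), and for 0 genes higher in young HSCs (0.341% of all genes). The median log2 difference of the 43 genes was -0.34, against -0.02 for all genes, 19 being above and 24 below 0. When samples were centred on the 2143 genes found above the floor in every sample, these medians became 0.11 and 0.44, and Ccnd2 and Cdk6 (2 higher) and Mcm7 and Top2a (2 lower) had an unadjusted p under 0.05. With the percentage of detected genes as a covariate, 0 of the 43 had an unadjusted p under 0.05, and without young replicate 4 there were 7.

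After CASIN, Cdkn2c was higher and Ccna2 lower than in aged HSCs at an unadjusted p under 0.05, which is 2 of the 43 (4.65%, against 4.4% of all genes). After adjustment 0 of the 43 passed 0.05 (lowest 0.948 in limma), against 0.0222% of all genes. Ccna2 was the only one of the 43 whose samples did not overlap, lower after CASIN (2.33%, against 1.43% of all genes), and 0 were higher without overlap (0.683% of all genes). The lowest detected values of the 43 genes were 3.34 and 3.03 in CASIN replicates 1 and 3, so a low level detected in aged samples may lie at the floor there. The median log2 difference was -0.28, against -0.04 for all genes, and after the same centring 0.07 and 0.31. The number with an unadjusted p under 0.05 was 0 with one common lowest value, 0 without aged replicate 0 and 4 without aged replicate 4, and 2 without CASIN replicate 2, then Cdkn2c and Cdkn2d. It was 1 without young replicate 2, 3 or 5, without aged replicate 2 or 5, or without CASIN replicate 3.

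Between young and aged CASIN-treated HSCs, Mcm7, lower in young HSCs, was alone among the 43 at an unadjusted p under 0.05 (2.33%, against 4.29% of all genes). The number was 0 without young replicate 2, 3 or 4 or aged replicate 0, 2 or 5, and 2 without aged replicate 4 or any 1 CASIN-treated sample. The adjusted p was under 0.05 for 0 of the 43 (lowest 0.9995 in limma) and for 0% of all genes. In 0 of the 43 genes did the samples of the 2 groups not overlap, against 0.674% of all genes higher and 1.4% lower in young HSCs. The median log2 difference of the 43 genes was 0.35 against 0.09 for all genes. The 3 comparisons share samples, and their values for a gene are not independent of each other.

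**Figure D3:**
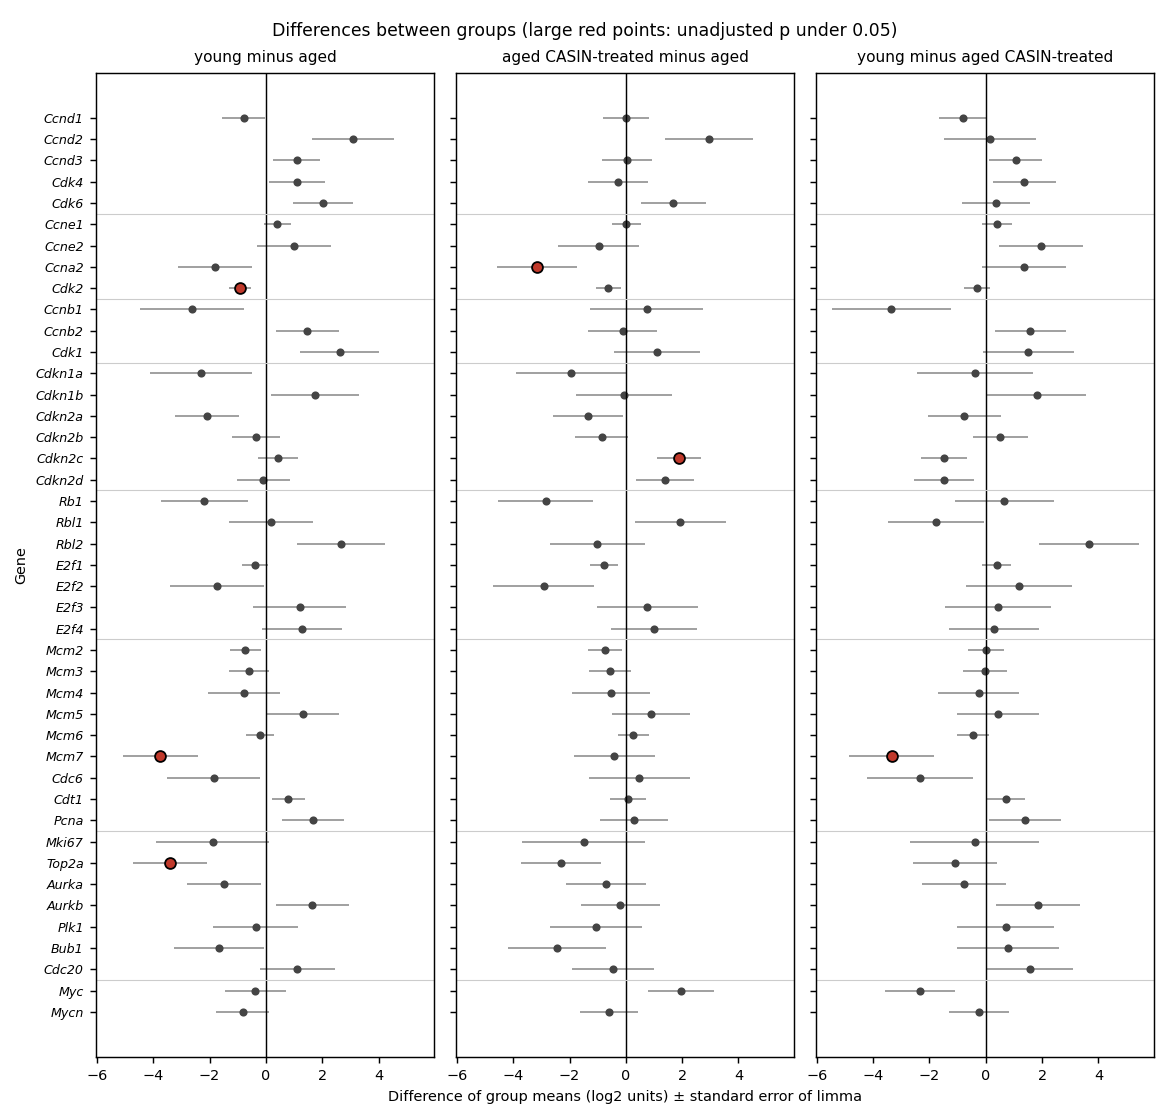
Points give the difference of group means in log2 units for each of the 43 genes and bars the standard error of limma, for young minus aged (left), aged CASIN-treated minus aged (middle) and young minus aged CASIN-treated HSCs (right). Large red points have an unadjusted p under 0.05, namely 3, 2 and 1 genes, and grey lines divide the role groups.

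Cyclin D2 (Ccnd2) belongs to the first group, the D-type cyclins and their kinases. Its log2 values were 8.31, 4.16, 4.04 and 7.83 in young replicates 2 to 5. In aged replicates 0 and 2 to 5 they were 3.29, 3.85, 0.23 (the lowest value), 6.12 and 1.46. In CASIN replicates 1 to 3 they were 3.92, 5.36 and 8.55. Both groups overlapped with the aged samples, since aged replicate 4 was above 2 of the 4 young samples. The difference from aged HSCs was 3.10 (standard error 1.44, unadjusted p = 0.0557, adjusted p = 0.764 in limma) in young and 2.95 (standard error 1.57, unadjusted p = 0.0876, adjusted p = 0.948 in limma) in CASIN-treated HSCs, and neither passed the threshold. The young difference ranged from 2.35 (unadjusted p = 0.157, without young replicate 2) to 3.88 (unadjusted p = 0.0196, without aged replicate 4) with 1 sample left out, and the CASIN difference from 1.65 (unadjusted p = 0.352 in limma, without CASIN replicate 3) to 3.96 (unadjusted p = 0.0498, without CASIN replicate 1). For the young difference the unadjusted limma p was under 0.05 with centring (0.0305), genes detected in at least 3 samples (0.0489), a pseudocount of 0.1 (0.0484), array weights (0.0350) and limma-trend (0.0377). It was above 0.05 with one common lowest value (0.0656), 2 groups only (0.0590), the detection covariate (0.216) and the replicate block (0.138). For the CASIN difference it was 0.0577 to 0.149 in these settings. An antisense gene, 9330179D12Rik, overlaps Ccnd2, and the use of strand in counting is not given.
Cdk6, the kinase partner of D-type cyclins whose level is tied to the speed of exit from quiescence in HSCs, was at the lowest value in young replicate 2 and had values of 2.22, 2.54 and 6.28 in replicates 3 to 5. In aged HSCs it was detected in 3 of 5 samples, with values of 1.77, 1.0 and 1.36 in replicates 0, 2 and 3. After CASIN the values were 3.34, 0.58 and 3.82. Aged samples were thus never above 1.77, while 3 of 4 young and 2 of 3 CASIN-treated samples were, although the groups overlapped. No gene of the role groups was detected below 2.03 in a young sample, or below 3.34 and 3.03 in CASIN replicates 1 and 3. A level of 1.77 or less may thus lie at the floor in these samples, and the contrast cannot be told apart from uneven detection. The log2 difference from aged HSCs was 2.03 in young (standard error 1.06, unadjusted p = 0.0837 in limma) and 1.68 in CASIN-treated HSCs (standard error 1.16, unadjusted p = 0.176 in limma). Cyclin D1 (Ccnd1) was detected in young replicate 3 only (2.50), in 4 of 5 aged samples (1.39 to 3.30) and in CASIN replicates 2 and 3 (1.96 and 3.03). Ccnd3 and Cdk4, the other members of this group, were each detected in 1 of 4 young and 2 of 5 aged samples, with highest values of 4.68 and 5.51, both in young HSCs.

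Cyclin E and cyclin A act with Cdk2 at the start of and during DNA replication. Of the values of these 4 genes, 18.8% were above the lowest value in young, 80.0% in aged and 25.0% in CASIN-treated HSCs. These are 3 of 16, 16 of 20 and 3 of 12 values, and values from 1 sample share its detection, so they are not independent. For all 43 genes the percentages were 32.0%, 68.4% and 53.5%. Of the 8 role groups, this one had the highest percentage in aged and the lowest in CASIN-treated HSCs. The nearest were 77.1% (pocket proteins and E2F factors) in aged and 48.1% (replication genes) in CASIN-treated HSCs. In young HSCs the Myc factors were lower. The contrast is thus the extreme of 8 groups and was not tested. Over all genes, 27.0% to 42.9% were detected in single young, 50.8% to 78.1% in aged and 30.4% to 88.8% in CASIN-treated samples. Cdk2 was at the lowest value in all 4 young samples, whereas the aged values were 0.86, 0.98, 1.36, 1.97 and 2.25 in replicates 0 and 2 to 5. After CASIN it was detected in replicate 2 only (1.39). All aged values were thus low but stood above every young sample. The lowest values detected among the genes of the role groups were 4.11, 2.22, 2.03 and 3.59 in young replicates 2 to 5. Most Cdk2 levels like the aged ones may thus lie at the floor in young samples. The separation therefore cannot be told apart from uneven detection. The log2 difference between young and aged HSCs was -0.92 (standard error 0.40, unadjusted p = 0.0411, adjusted p = 0.764 in limma). It was no longer under an unadjusted p of 0.05 without any 1 of the 4 young samples (unadjusted p = 0.0617 to 0.0772 in limma) or without aged replicate 3, 4 or 5 (unadjusted p = 0.0511, 0.0801 and 0.0845). With centring the difference was -0.47 (unadjusted p = 0.336 in limma). The unadjusted limma p was also above 0.05 with genes detected in at least 3 samples (0.149), limma-trend (0.168) and the detection covariate (0.105). The same held for the replicate block (0.0665) and a pseudocount of 0.1 (0.0529). Cdk2 overlaps Pmel on the other strand.
Cyclin A2 (Ccna2) was detected in young replicate 4 only (5.36). In aged replicates 0 and 2 to 5 its values were 2.83, 4.79, 1.36, 7.11 and 1.97. After CASIN it was at the lowest value in replicates 1 and 3 and at 0.15 in replicate 2, so that each aged sample was above each CASIN-treated sample. No gene of the role groups was detected below 3.34 and 3.03 in CASIN replicates 1 and 3. Levels like those of aged replicates 0, 3 and 5 may thus lie at the floor there. For Ccna2, too, the separation cannot be told apart from uneven detection. The log2 difference between CASIN-treated and aged HSCs was -3.16 (standard error 1.43, unadjusted p = 0.0494, adjusted p = 0.948 in limma). The unadjusted p was above 0.05 in 9 of the 12 fits with 1 sample left out, rising to 0.113 without CASIN replicate 2. It was also above 0.05 with one common lowest value (0.0710), centring (0.0792), array weights (0.0561), limma-trend (0.0894), the detection covariate (0.0866) and the replicate block (0.0510). Ccna2 overlaps Exosc9 on the other strand. Cyclin E2 (Ccne2) reached 7.61 in young replicate 4 and was otherwise not detected in young or CASIN-treated HSCs, against 1.16 to 2.23 in 4 of 5 aged samples. Ccne1 was at most 2.26, in young replicate 4.

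Cyclin B and Cdk1 drive entry into mitosis. Cyclin B1 (Ccnb1) was detected in young replicate 4 (4.74), in all 5 aged samples (4.39, 7.69, 1.54, 6.79 and 0.89 in replicates 0 and 2 to 5) and in CASIN replicates 1 and 2 (8.03 and 6.38). The aged values thus ran from near the lowest value to above that of the young sample. The log2 difference of young from CASIN-treated HSCs was -3.36 (standard error 2.11, unadjusted p = 0.141, adjusted p = 0.9995 in limma). It was -5.57 (unadjusted p = 0.0210 in limma) without CASIN replicate 3 and -1.84 (unadjusted p = 0.443) without CASIN replicate 1. Cdk1 was detected in 3 of 4 young (highest value 6.94), 3 of 5 aged (highest 2.54) and 2 of 3 CASIN-treated samples (highest 5.62). Ccnb2 reached 6.53 in young replicate 3 and was at most 1.53 elsewhere.

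Among the CDK inhibitors, p21 (Cdkn1a) is a target of p53 and p27 (Cdkn1b) is known to restrain the division of hematopoietic progenitors. Cdkn1a was detected in young replicate 4 only (6.95), in all 5 aged samples (3.59, 0.86, 5.64, 7.24 and 5.14 in replicates 0 and 2 to 5) and in CASIN replicate 2 only (6.49). The single young sample thus lay within the aged range. In young HSCs the mean was 2.19 ± 3.18 (SD, n = 4), as against 4.50 ± 2.41 (SD, n = 5) for aged HSCs and 2.57 ± 3.40 (SD, n = 3) after CASIN. The log2 difference of -2.31 between young and aged HSCs did not exceed the spread between replicates (standard error 1.82, unadjusted p = 0.231 in limma). Cdkn1b had values of 5.89, 3.35 and 7.35 in young replicates 2 to 4 and was at the lowest value in replicate 5. In aged HSCs it was detected in 4 of 5 samples (2.21, 3.49, 2.15 and 4.79 in replicates 0, 2, 3 and 5) and after CASIN in replicates 2 and 3 (0.91 and 5.99).
p16 and p19Arf both come from Cdkn2a, and the values give 1 level for the gene. Cdkn2a was at the lowest value in all 4 young samples. It was detected in 4 of 5 aged samples, with values of 6.35, 3.30, 1.30 and 2.25 in replicates 2 to 5, and in CASIN replicates 1 and 2, with 3.34 and 0.04. Aged replicate 0, the sample with the second most genes detected among aged HSCs, had it at the lowest value. The log2 difference between young and aged HSCs was -2.09 (standard error 1.14, unadjusted p = 0.0941, adjusted p = 0.764 in limma).
p18 (Cdkn2c), an Ink4 inhibitor that restrains HSC self-renewal in mice, was at the lowest value in all 9 untreated samples and was detected in CASIN replicates 1 (4.64) and 2 (0.89) only. CASIN replicate 1 alone stands well above the others. The log2 difference of CASIN-treated from aged HSCs was 1.90 (standard error 0.78, unadjusted p = 0.0334, adjusted p = 0.948 in limma). It was 1.40 with one common lowest value (unadjusted p = 0.0905) and 0.59 without CASIN replicate 1 (unadjusted p = 0.134), and the p was also above 0.05 without aged replicate 0, 2 or 5 (0.0526, 0.0536 and 0.0501). With the replicate block it was 0.58 (unadjusted p = 0.319 in limma). The unadjusted limma p was also above 0.05 with 2 groups only (0.0719) and the detection covariate (0.0672). Cdkn2d (p19) reached 5.48 in CASIN replicate 1 and at most 1.30 in the others, and Cdkn2b (p15) was detected in 1, 3 and 1 samples of young, aged and CASIN-treated HSCs, at most at 3.35.

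Among pocket proteins and E2F factors, E2f1, an activator of replication genes, was detected in every sample. Its values were 7.51, 7.99, 8.67 and 8.34 in young replicates 2 to 5, and 9.52, 7.66, 8.16, 8.81 and 8.42 in aged replicates 0 and 2 to 5. In CASIN replicates 1 to 3 they were 7.38, 8.21 and 7.62. The means were 8.13 ± 0.49 (SD, n = 4), 8.51 ± 0.70 (SD, n = 5) and 7.74 ± 0.43 (SD, n = 3), and all 3 groups overlapped. The log2 difference was -0.39 between young and aged HSCs (standard error 0.45, unadjusted p = 0.410 in limma) and -0.78 between CASIN-treated and aged HSCs (standard error 0.49, unadjusted p = 0.143 in limma), and neither passed the threshold. No other annotated gene overlaps E2f1 (chromosome 2, 154559407 to 154569892 of mm10, GENCODE M21).
The pocket protein p130 (Rbl2), which with E2F4 forms the repressor complex of resting cells, had values of 7.23, 7.30 and 2.92 in young replicates 2 to 4 and was at the lowest value in replicate 5. In aged HSCs it was detected in 3 of 5 samples (0.98, 2.00 and 5.99 in replicates 0, 2 and 4) and after CASIN in replicate 2 only (1.39). The 2 highest values of Rbl2 were thus both in young HSCs, with overlap. The log2 difference was 2.65 between young and aged HSCs (standard error 1.56, unadjusted p = 0.118 in limma) and 3.66 between young and CASIN-treated HSCs (standard error 1.78, unadjusted p = 0.0649 in limma). With 1 sample left out the first fell as low as 1.73 (unadjusted p = 0.312, without young replicate 3) or 1.75 (unadjusted p = 0.308 in limma, without young replicate 2). Without young replicate 5 the differences were 3.94 (unadjusted p = 0.0219) and 4.95 (unadjusted p = 0.0124 in limma), and without aged replicate 4 the p-values were 0.0243 and 0.0349. Rbl2 overlaps Aktip on the other strand. E2f2 was detected in young replicate 4 only (7.15), in 4 of 5 aged samples (1.96, 6.68, 5.48 and 5.51 in replicates 0, 2, 4 and 5) and in CASIN replicate 2 (1.97). For E2f2 the log2 difference of CASIN-treated from aged HSCs was -2.92 (standard error 1.80, unadjusted p = 0.134 in limma), and it ranged with 1 sample left out from -2.24 without aged replicate 2 (unadjusted p = 0.253) to -3.85 without aged replicate 3 (unadjusted p = 0.0473). Rb1 was detected in 1 of 4 young and all 5 aged samples, Rbl1 in 2 and 3, E2f3 in 2 and 4 and E2f4 in 1 and 3, and after CASIN these 4 genes were detected in 2, 3, 3 and 2 of 3 samples.

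The minichromosome maintenance genes Mcm2 to Mcm7 encode the replicative helicase, which Cdc6 and Cdt1 load at origins. Of the 9 genes of this group, 4 were detected in no young sample (against 34.6% of all genes), 0 in no aged sample (6.12%) and 0 in no CASIN-treated sample (9.48%). Mcm7 was at the lowest value in all 4 young samples. Its values were 3.93, 5.80, 7.47, 1.97 and 2.34 in aged replicates 0 and 2 to 5, and 4.50 and 6.56 in CASIN replicates 2 and 3, whereas it was not detected in CASIN replicate 1. Every aged sample was thus above every young sample, and CASIN-treated samples were spread over both. The log2 difference was -3.74 between young and aged HSCs (standard error 1.32, unadjusted p = 0.0168, adjusted p = 0.764 in limma) and -3.34 between young and CASIN-treated HSCs (standard error 1.51, unadjusted p = 0.0493, adjusted p = 0.9995 in limma). The first had an unadjusted p under 0.05 in all 12 fits with 1 sample left out, at most 0.0401, but of 0.0958 with the percentage of detected genes as a covariate. The second was above 0.05 in 9 of these 12 fits, up to 0.225 without CASIN replicate 3, where the difference was -2.0, as against -4.97 without CASIN replicate 1. It was also above 0.05 with one common lowest value (0.0623), centring (0.0547), limma-trend (0.0763) and the detection covariate (0.104). Mcm7 hosts 3 miRNA genes and overlaps Cops6 and Ap4m1 on the other strand.
The other helicase genes were detected in fewer aged samples. Mcm2, Mcm3 and Mcm6 were likewise detected in no young sample, but in only 3 of 5 aged samples each, with highest values of 2.79, 3.82 and 2.26. Mcm4 was detected in 1 young and 3 aged samples, and Mcm5 in 3 of 4 young (2.50 to 4.64) and 3 of 5 aged samples (0.51 to 5.58). Cdc6 had values of 7.33 and 5.27 in young replicates 2 and 3 and the lowest value in replicates 4 and 5, 5.44, 7.86, 3.30, 7.11 and 2.67 in aged replicates 0 and 2 to 5, and 6.02, 7.43 and 3.82 in CASIN replicates 1 to 3. Both young samples with Cdc6 lay within the aged range. Pcna, the sliding clamp of DNA polymerase, was detected in young replicates 4 and 5 (2.40 and 6.58), in aged replicates 0, 2 and 3 (0.90, 1.45 and 1.54) and in CASIN replicate 2 (2.22).

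Mki67 encodes the proliferation antigen Ki-67, which resting cells lack. Its values were 4.11, 2.21 and 7.23 in young replicates 2, 4 and 5, and it was at the lowest value in replicate 3. In aged replicates 0, 2, 4 and 5 they were 6.85, 7.65, 4.49 and 7.80, with the lowest value in replicate 3. In CASIN replicates 2 and 3 they were 8.07 and 3.03. All 3 groups thus held samples with high values and samples without detection, and the means of 3.51 ± 2.89 (SD, n = 4), 5.40 ± 3.18 (SD, n = 5) and 3.91 ± 3.80 (SD, n = 3) differed by less than the spread. Top2a, a topoisomerase of dividing cells, was at the lowest value in all 4 young samples. It had values of 5.44, 3.92, 7.70 and 2.49 in aged replicates 0, 2, 3 and 5, the lowest value in aged replicate 4, and 3.73 in CASIN replicate 2 alone. Its log2 difference between young and aged HSCs was -3.39 (standard error 1.31, unadjusted p = 0.0253, adjusted p = 0.764 in limma). Without aged replicate 0 it was -3.02 (unadjusted p = 0.0575), and with the percentage of detected genes as a covariate -2.18 (unadjusted p = 0.215). With the replicate block it was -3.02 (unadjusted p = 0.0882 in limma).
The other mitotic genes were found in scattered samples. Bub1, a kinase of the spindle checkpoint, was detected in 2 of 4 young, all 5 aged (1.84 to 8.0) and all 3 CASIN-treated samples (1.21 to 3.92). The polo-like kinase Plk1 was detected in 2, 4 and 2 samples of young, aged and CASIN-treated HSCs, and Aurka in 0, 3 and 1. Aurkb (7.46), a kinase of chromosome alignment, and Cdc20 (7.32), an activator of the anaphase-promoting complex, had their highest values in young replicate 3, the only young sample that detected them, against at most 2.05 and 2.92 in aged HSCs. For the 7 genes of this group the median log2 difference was -1.48 between young and aged HSCs (all genes -0.02) and -1.07 between CASIN-treated and aged HSCs (all genes -0.04), and in the latter 0 of the 7 had an unadjusted p under 0.05. The other role groups, in the order of the text, had medians of 1.10, -0.26, 1.47, -0.22, 0.19, -0.60 and -0.60 between young and aged HSCs. Between CASIN-treated and aged HSCs their medians were 0.03, -0.79, 0.73, -0.46, -0.78, 0.08 and 0.68. These medians cannot be told apart from uneven detection.

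Myc drives cell growth and division, and Mycn is its close relative. Both were at the lowest value in all 4 young samples. Myc was detected in aged replicates 0 (0.48) and 2 (3.59) and in CASIN replicates 2 (1.88) and 3 (6.19). Its highest value was thus in a CASIN-treated sample, but 1 of 3 CASIN-treated and 3 of 5 aged samples did not detect it. The log2 difference of CASIN-treated from aged HSCs was 1.96 (standard error 1.18, unadjusted p = 0.124, adjusted p = 0.948 in limma), 0.31 (unadjusted p = 0.738) without CASIN replicate 3, 2.62 (unadjusted p = 0.0346) without aged replicate 2 and 3.10 (unadjusted p = 0.0281) without CASIN replicate 1. Mycn was detected in aged replicates 2 (5.15) and 4 (1.30) and in CASIN replicate 2 (1.16).

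**Figure D4:**
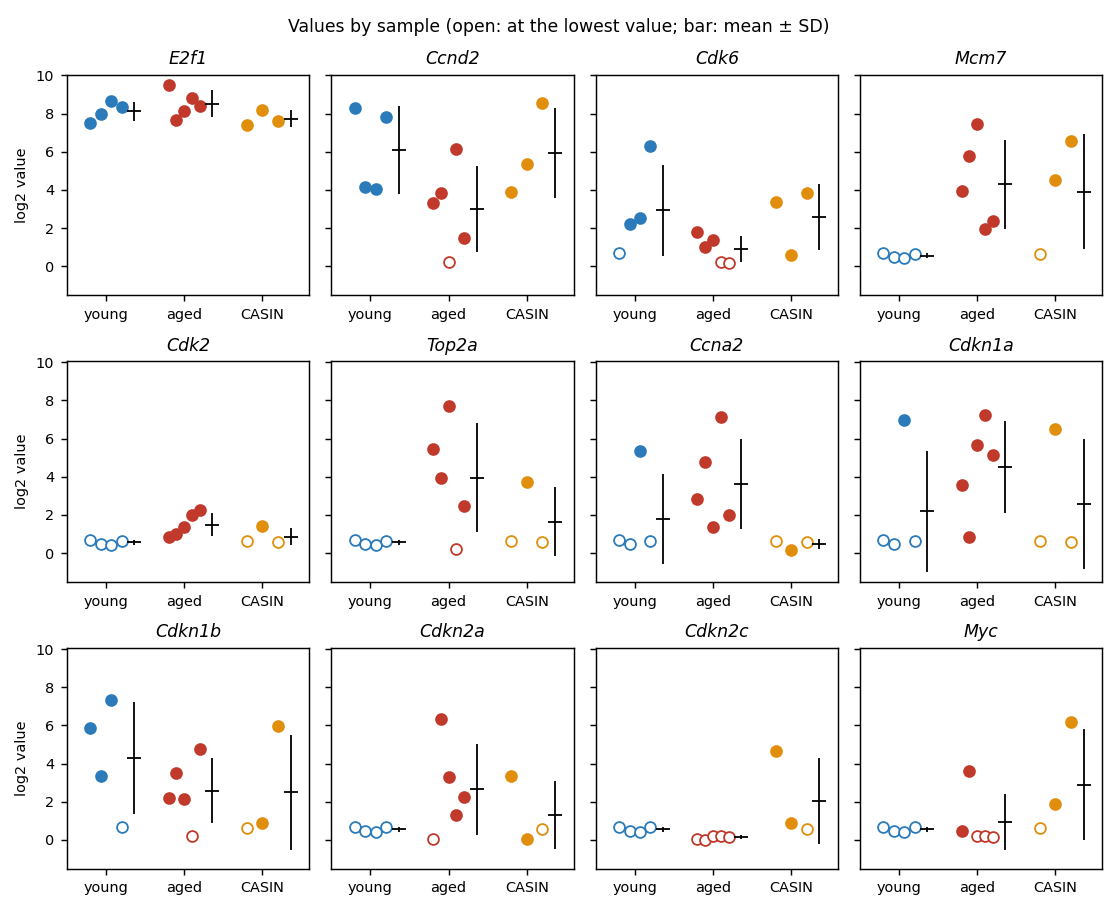
Log2 values of 12 of the genes in the 4 young, 5 aged and 3 CASIN-treated samples. Filled points are detected values, open points are at the lowest value of the sample, and bars give the mean ± SD. E2f1 is detected in all 12 samples, Mcm7 and Cdk2 are at the lowest value in every young sample and detected in every aged sample, and Cdkn2c is detected in 2 CASIN-treated samples only.

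A wider list of 89 other genes of the cell cycle was examined in the same fit, comprising 31 replication genes, 30 mitosis genes and 28 genes of quiescence and G1. Between young and aged HSCs, 3 of the 89 were higher and 5 lower in young HSCs at an unadjusted p under 0.05 (8.99%, against 5.33% of all genes). After CASIN 2 were higher and 3 lower than in aged HSCs (5.62%, against 4.4%), and between young and CASIN-treated HSCs 5 were higher and 6 lower in young HSCs (12.4%, against 4.29%). The lowest adjusted p of the 89 was 0.534 in limma, so 0 passed in any comparison.
The genes named below are those with the largest differences at an unadjusted p under 0.01. They were picked from the same fit, and other settings are not given for them. Tfdp2, which encodes a dimerization partner of E2F factors, was at the lowest value in all 4 young samples and detected in all 5 aged samples (5.07 ± 1.06, SD, n = 5), with a log2 difference of -4.51 (standard error 1.13, adjusted p = 0.534 in limma). The same held for Lin37, a subunit of the DREAM repressor complex of resting cells (3.52 ± 2.18 in aged, SD, n = 5), with a log2 difference of -2.96 (adjusted p = 0.735 in limma). Its value in aged replicate 0 was 0.86, a level that may lie at the floor in young samples. With one common lowest value, young and aged samples did not overlap for 4 of the 89 genes, lower in young HSCs (4.49%, against 1.61% of all genes). None of the 89 was higher in young HSCs without overlap (0.341% of all genes). After CASIN, Tfdp2 was detected in 2 of 3 samples and Lin37 in 1 of 3. Orc6, a subunit of the origin recognition complex, had a mean of 5.28 ± 3.33 (SD, n = 4) in young HSCs and 0.98 ± 1.14 (SD, n = 5) in aged HSCs, and was detected in 1 of 3 CASIN-treated samples. The log2 differences of young from aged and from CASIN-treated HSCs were 4.29 and 4.66 (adjusted p = 0.652 and 0.922 in limma). Mybl2, an activator of mitotic genes, averaged 6.63 ± 1.58 (SD, n = 4) in young HSCs but 1.68 ± 1.87 (SD, n = 3) after CASIN, a log2 difference of 4.95 (adjusted p = 0.880 in limma). In untreated aged HSCs its mean was 3.41 ± 2.52 (SD, n = 5). Ndc80, a kinetochore subunit, was detected in none of the young and in all 3 CASIN-treated samples (log2 difference -4.19). It was also detected in 4 of 5 untreated aged samples (2.25 ± 1.69, SD, n = 5). Btg1, an antiproliferative gene, averaged 6.54 ± 1.05 (SD, n = 5) in aged HSCs but 2.99 ± 2.10 (SD, n = 3) after CASIN, a log2 difference of -3.54 (adjusted p = 0.948 in limma). In young HSCs its mean was 5.77 ± 1.45 (SD, n = 4).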

How the data were processed

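RNA-seq values of 12 HSC samples were used. Per the methods, the authors used a single-cell RNA-seq kit, trim galore for trimming of paired-end reads, TopHat for alignment (mm10, RefSeq genes) and then Cufflinks. The table as deposited holds 22548 genes on a log2 scale with a common highest value of 16.09 and nearly one distribution (quantile normalization). The step from Cufflinks to these values, the use of strand and of gene length, and the depth are not given in the sources used here, so no result compares levels between genes. Quantile normalization removes differences in total RNA.

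Groups and replicate numbers came from the labels. Group differences were obtained by limma 3.58.1 under R 4.3.3 with two-sided tests (lmFit and eBayes), in one fit of 3 groups, with Benjamini-Hochberg adjustment over all genes, and the test was tried on simulated data. Figures used matplotlib 3.10.9 and Python 3.11.15. Positions are from GENCODE M21. All 43 genes are accounted for by role group. Values in each sample are printed for genes with an unadjusted p under 0.05 in any comparison, those detected in all samples, the 2 highest and 2 lowest differences per comparison, the highest mean of each role group (used only to choose genes), and Cdk6, Ccnd1, Cdkn1a, Cdkn1b, Cdkn2a, Cdkn2c, Rbl2, Mki67, Pcna, Myc and Mycn. The genes, lists and markers were chosen with earlier results of these data known. Other cell cycle genes are named for the 2 highest and 2 lowest differences at an unadjusted p under 0.01. Alternatives were one common lowest value, centring, genes detected in at least 3 samples, a pseudocount of 0.1 in place of 1, array weights, limma-trend, 2 groups only, a detection covariate, a replicate block and each sample left out.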

Additional observations from a re-analysis of the deposited data

Results flagged for a closer look

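Of 42 combinations of a named gene with the young or the aged group, 8 held 1 sample far from the others by Dixon's criterion. Chance meets it in about 1 of 20 groups of evenly measured values, but that rate does not apply here, since a gene detected in a single sample of its group meets it by construction. In 6 of the 8, all in young HSCs, that sample was the only one of its group above the lowest value, a pattern of 27.6% of all genes in young HSCs. In young replicate 4 these were Ccne2 (7.61), Ccna2 (5.36), Ccnb1 (4.74), Cdkn1a (6.95) and E2f2 (7.15), and in young replicate 3 Ccnd1 (2.50). In aged replicate 2 they were Myc (3.59) and Mycn (5.15), each detected in 1 further aged sample. The cause of these values was not tested.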

How the results depend on the processing

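The number of the 43 genes with an adjusted p under 0.05 in limma was 0 in all 3 comparisons under each of the 9 other settings and with each of the 12 samples left out. Between young and aged HSCs, the number at an unadjusted p under 0.05 was 0 with the detection covariate and 5 with the replicate block, and 2 to 7 with 1 sample left out. Between CASIN-treated and aged HSCs it was 0 with one common lowest value and with the detection covariate, 1 with centring, with genes detected in at least 3 samples, with array weights, with limma-trend, with 2 groups only and with the replicate block, and 0 to 4 with 1 sample left out. Between young and CASIN-treated HSCs it was 0 with one common lowest value and with centring, 3 with the replicate block, and 0 to 2 with 1 sample left out. The cause was not tested. Same-numbered samples did not deviate together, since the correlations of their deviations from the group means lay between -0.033 and 0.058 over 8 pairs, so the replicate block pairs samples by number only. Single genes were followed where they had an unadjusted p under 0.05 or were among the 2 highest and 2 lowest differences of a comparison. They were chosen from the same main fit, which makes a change of sign unlikely. Of 293 such differences under these settings, 221 kept their side, above or under, of an unadjusted limma p of 0.05. A further 53 lost a p under 0.05, 19 gained it and 0 changed sign. The depth is unknown, and a gene at the lowest value is not shown to be absent.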
